A study of Homo sapiens with 9 samples.

Results

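The 8 genes described here encode the exon junction complex: EIF4A3, RBM8A, MAGOH, MAGOHB and CASC3 of its core, and RNPS1, ACIN1 and SAP18 of the ASAP complex that binds it. They were chosen by gene symbol, as the authors' table of assembled transcripts assigns symbols. The rule used no measured value, but it was set with earlier results of these data known. The genes are 8 of 22266 loci with a deposited gene value, and they hold 89 of the 199618 isoforms with a deposited signal. All 8 loci carried 1 symbol only. The spliceosome leaves an exon junction complex on mRNA upstream of each junction between exons, and a translating ribosome clears it away. Where a ribosome stops upstream of a remaining complex, the complex recruits UPF2 and UPF3B, and through them the helicase UPF1, to start nonsense-mediated decay (NMD). SMG6 then cuts the mRNA near the stop codon, and the 5′ to 3′ exonuclease XRN1 degrades the fragment downstream of the cut.

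The cells came from subline b-39 of HEK293 Flp-In T-Rex, a line derived from human embryonic kidney with an engineered integration site. They received siRNA against SMG6 and XRN1 together, UPF1 and XRN1 together, XRN1 alone, or EGFP as the control. All 4 groups expressed a β-globin reporter named PTC39 from the Flp-In site, so the controls carried an NMD reporter too. RNA sequencing covered cytoplasmic poly(A)+ RNA, with 1 library per group among the 9 samples of the series, so no difference below has a replicate check and none was tested. The other 5 samples, of 5′ ends of RNA, were not analysed here.

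The libraries held 34649855 estimated reads in SMG6/XRN1, 35983475 in UPF1/XRN1, 32970743 in XRN1 and 31476528 in control. The mRNAs that the siRNAs target gave no clear check of the labels. XRN1 stood at 10.1 FPKM (fragments per kilobase of transcript, scaled to the library size) in the library labelled SMG6/XRN1, 6.50 in UPF1/XRN1, 7.31 in XRN1 and 7.80 in control. SMG6 was at 7.66 FPKM in SMG6/XRN1 against 5.55 in XRN1, while its estimated reads went the other way, at 672 against 718. UPF1 was at 8.59 FPKM in UPF1/XRN1, below 11.4 in SMG6/XRN1 and 11.6 in XRN1 but above 6.71 in control. The libraries are therefore called by what their labels say. Of 6 genes listed as marks of the HEK293 line, VIM, NEFL, INA, KRT8 and KRT18 passed 1 FPKM and NEFM did not. None of 9 marks of blood, liver, muscle, fibroblast or astrocyte cells passed it, the highest being ALB with 32 estimated reads.

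MAGOHB had the widest differences of the 8 genes in both co-depletions, over control and over XRN1. It had 153 FPKM in the library labelled SMG6/XRN1, 156 in UPF1/XRN1, 89.8 in XRN1 and 73.6 in control. It was the only member past 2-fold in any comparison, at log2 differences of 1.04 for SMG6/XRN1 over control and 1.07 for UPF1/XRN1 over control. ACIN1 and CASC3 were also higher in both co-depletions, at log2 differences of 0.60 to 0.66 over control. EIF4A3 and RNPS1 were lower there, at -0.32 to -0.50. RBM8A, MAGOH and SAP18 stayed within -0.16 and 0.14 of control. All log2 differences of FPKM are on the log2(FPKM + 1) scale. In bulk RNA, fewer cells of a kind and less RNA per cell cannot be told apart.

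**Figure D1:**
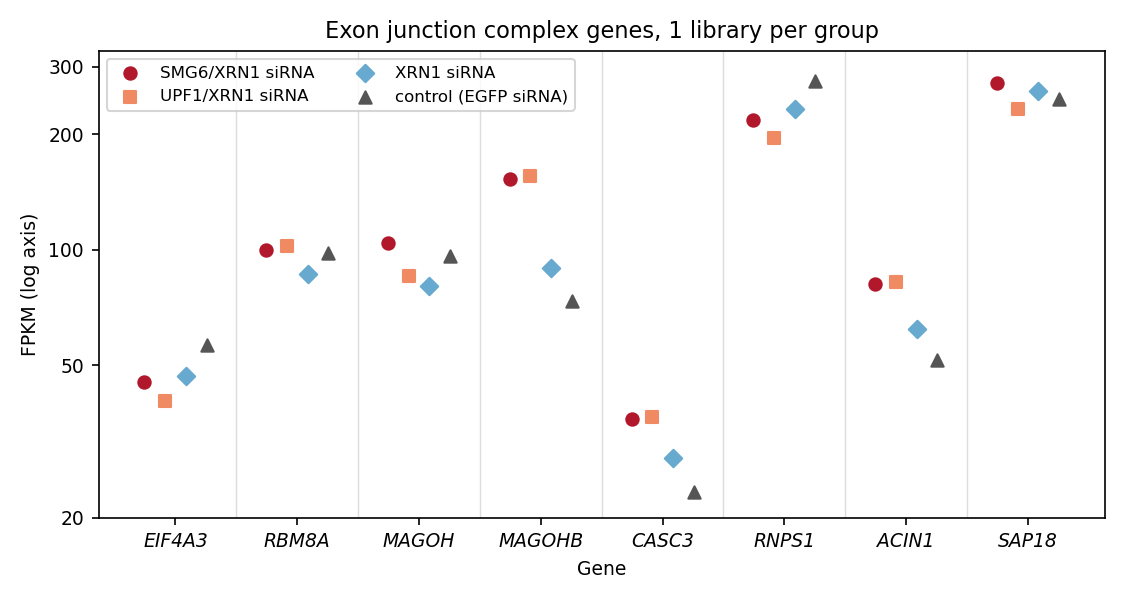
FPKM of the 8 exon junction complex genes on a log axis, with 1 point per library and the groups of each gene in the order SMG6/XRN1, UPF1/XRN1, XRN1 and control. MAGOHB, ACIN1 and CASC3 are highest in the co-depletions, while EIF4A3 and RNPS1 are highest in control.

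At the level of whole genes, the counts of the 8 past 2-fold are set beside the shares of all genes. With 8 genes and shares this small, such counts cannot show whether the set is unusual. In SMG6/XRN1 over XRN1, 0 of 8 passed 2-fold in either direction, where 1.54% of the 12164 genes compared did. In UPF1/XRN1 over XRN1 it was again 0 of 8, where 3.05% of genes did, and in XRN1 over control 0 of 8, where 4.48% did. Over control, 1 of 8 passed 2-fold in SMG6/XRN1, where 9.56% of genes did, and 1 of 8 in UPF1/XRN1, where 10.8% did. The median log2 difference of the 8 was 0.27 in SMG6/XRN1 over XRN1 beside 0.12 for all genes. It was 0.16 in UPF1/XRN1 over XRN1 beside 0.02, and -0.06 in XRN1 over control beside 0.14. Over control the medians were 0.13 in SMG6/XRN1 beside 0.25, and -0.02 in UPF1/XRN1 beside 0.15. With each comparison centred on the median of all genes, 0 of 8 passed 2-fold over control in either co-depletion, so the call of MAGOHB there depends on the centring. These comparisons are not independent, since all 5 draw on the same XRN1 or control library.

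Levels per length can be ranked within a library. In SMG6/XRN1 the order of FPKM was SAP18, RNPS1, MAGOHB, MAGOH, RBM8A, ACIN1, EIF4A3 and CASC3. In control it was RNPS1, SAP18, RBM8A, MAGOH, MAGOHB, EIF4A3, ACIN1 and CASC3. MAGOHB thus stood above MAGOH and RBM8A in SMG6/XRN1 and below both in control. With 1 library per group there is no spread by which to say which neighbours in these orders differ.

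The isoform table gives each assembled isoform a spike-in normalised signal, which is proportional to its estimated reads and is not per length. Reads were recovered by dividing the signal by the value of 1 read in that library, 4.251 in SMG6/XRN1, 3.720 in UPF1/XRN1, 4.050 in XRN1 and 3.854 in control. Ratios of reads below keep the spike-in scale unless said otherwise. Their 95% intervals cover counting error only, not the division of reads among overlapping isoforms or the spread between cultures. In SMG6/XRN1 over XRN1, 6 of the 8 loci had an interval above 1 and 0 an interval below 1, where 53.4% and 7.95% of 15363 loci did. In UPF1/XRN1 over XRN1 the counts were 6 above and 2 below, where 41.4% and 24.2% of loci were. In XRN1 over control 3 were above and 5 below, where 48.9% and 15.4% were. In SMG6/XRN1 over control 5 were above and 2 below, where 65.5% and 7.70% were, and in UPF1/XRN1 over control 5 were above and 3 below, where 53.7% and 19.0% were. These counts depend on the scaling: with the libraries scaled to the same total of reads, 3 were above 1 and 5 below in each co-depletion over control, and 6 above and 2 below in SMG6/XRN1 over XRN1. The shares of all loci were not matched for reads. They take in loci with few reads, while the 8 had from 1645 (MAGOH in XRN1) to 13486 (RNPS1 in control). With many reads an interval can leave out 1 for a small difference, as for SAP18 in XRN1 over control, at 0.944 (0.916 to 0.973). No conclusion is therefore drawn from the gap between the counts and the shares.

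**Figure D2:**
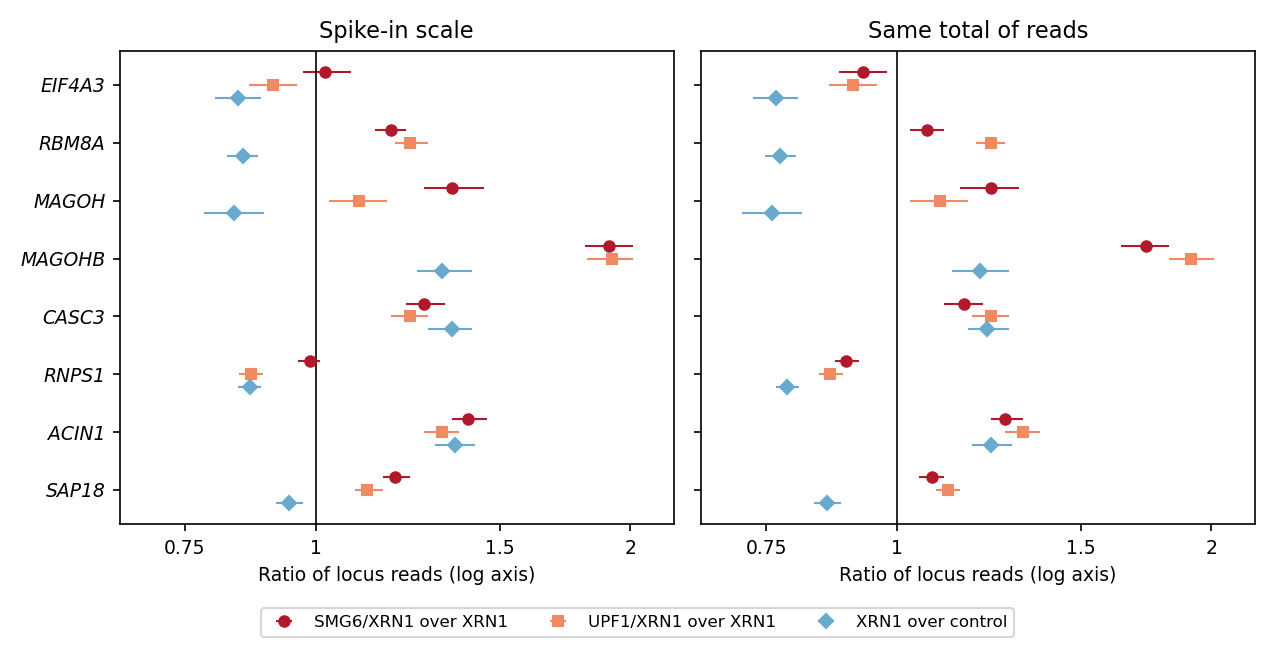
Ratios of estimated reads per locus on a log axis, with 95% intervals for counting error, for SMG6/XRN1 over XRN1, UPF1/XRN1 over XRN1 and XRN1 over control. The left panel keeps the spike-in scale and the right panel scales the libraries to the same total of reads, and MAGOHB has the highest ratios of both co-depletions in both panels.

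EIF4A3 is the DEAD-box ATPase that clamps the complex onto RNA (chromosome 17, 80135214 to 80147183, minus strand; here and below in GRCh38 by GENCODE v29, since the files, made on hg19, hold no coordinates). It had 45.2 FPKM in SMG6/XRN1, 40.4 in UPF1/XRN1, 46.9 in XRN1 and 56.5 in control. Control was the highest of the 4 libraries. Its reads were 1.02 times those of XRN1 in SMG6/XRN1 (0.972 to 1.08) and 0.910 times in UPF1/XRN1 (0.864 to 0.960). Scaled to the same total of reads, the SMG6/XRN1 ratio was 0.929 (0.881 to 0.979). Over control the ratios were 0.864 (0.822 to 0.908) in SMG6/XRN1 and 0.768 (0.730 to 0.807) in UPF1/XRN1. A single coding isoform, EIF4A3-201, held 98.4% of the locus's reads in SMG6/XRN1, 98.5% in UPF1/XRN1, 98.6% in XRN1 and 99.5% in control. None of its isoforms past the filter differed by 2-fold between a co-depletion and XRN1. Its close relatives are the translation initiation helicases EIF4A1 and EIF4A2. EIF4A2 was higher in the co-depletions, with 824 FPKM in SMG6/XRN1, 764 in UPF1/XRN1, 513 in XRN1 and 470 in control. EIF4A1 lay within -0.26 and 0.10 in log2 in all 5 comparisons. Over control it was at -0.07 in SMG6/XRN1 and -0.16 in UPF1/XRN1, beside -0.32 and -0.47 for EIF4A3.

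RBM8A (Y14) pairs with MAGOH or MAGOHB and locks EIF4A3 in its closed form (chromosome 1, 145917714 to 145927678, minus strand). It had 100 FPKM in SMG6/XRN1, 102 in UPF1/XRN1, 86.3 in XRN1 and 98.2 in control. The co-depletions and control lay together, with XRN1 below them. Its reads over XRN1 were 1.18 (1.14 to 1.22) in SMG6/XRN1 and 1.23 (1.19 to 1.28) in UPF1/XRN1, and over control 1.01 (0.974 to 1.04) and 1.05 (1.02 to 1.08) in the same order. Scaled to the same total of reads, both ratios over control were below 1, at 0.829 (0.802 to 0.857) in SMG6/XRN1 and 0.952 (0.923 to 0.983) in UPF1/XRN1. Its main isoform had a signal of 23658 in SMG6/XRN1, 24143 in UPF1/XRN1, 19423 in XRN1 and 23174 in control, and its reference transcript is not in GENCODE v29 under that identifier. A retained-intron isoform, RBM8A-202, held 8.49% of reads in SMG6/XRN1 (7.83 to 9.18, exact Clopper-Pearson), 7.70% in UPF1/XRN1 (7.12 to 8.30), 7.54% in XRN1 (6.88 to 8.24) and 6.42% in control (5.88 to 7.01). None of the 4 RBM8A isoforms compared passed 2-fold in any of the 5 comparisons.

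MAGOH is a partner of RBM8A (chromosome 1, 53226892 to 53238610, minus strand). It had 104 FPKM in SMG6/XRN1, 85.6 in UPF1/XRN1, 80.6 in XRN1 and 96.1 in control. Its reads over XRN1 were 1.35 (1.27 to 1.45) in SMG6/XRN1 and 1.10 (1.03 to 1.17) in UPF1/XRN1, so it was higher in both, though by different amounts. Over control, SMG6/XRN1 was at 1.13 (1.07 to 1.20), which became 0.933 (0.877 to 0.991) when the libraries were scaled to the same total of reads. The full coding isoform MAGOH-202 had a signal of 7872 in SMG6/XRN1, 6291 in UPF1/XRN1, 5895 in XRN1 and 7306 in control. The isoform MAGOH-201, which lacks the 111-base exon 3 and stays in frame, had 1120 in SMG6/XRN1, 1006 in UPF1/XRN1, 755 in XRN1 and 655 in control. Neither passed 2-fold, and no MAGOH isoform in the table matches a reference transcript of NMD type.

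MAGOHB is the paralog of MAGOH and can take its place beside RBM8A (chromosome 12, 10604190 to 10613623, minus strand). Its coding sequence has 444 bases against 438 in MAGOH, and 86.8% of the 438 aligned bases are identical, the longest identical run being 38 bases. Exon 3 has 111 bases in both and 17 mismatches, which are in capitals here to show how far reads can tell the paralogs apart (reference transcripts of GENCODE v29, GRCh38, 5′ to 3′).
MAGOHB-201 exon 3: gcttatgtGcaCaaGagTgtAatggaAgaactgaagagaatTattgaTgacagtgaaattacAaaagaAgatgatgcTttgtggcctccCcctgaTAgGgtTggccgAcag
MAGOH-202 exon 3: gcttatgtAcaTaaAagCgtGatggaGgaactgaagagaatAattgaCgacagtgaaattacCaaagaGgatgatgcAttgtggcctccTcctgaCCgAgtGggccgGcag
How the authors' counting treated reads that fit both genes is not stated in the labels, so the division of reads between their shared exons is uncertain.

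The higher MAGOHB level in the co-depletions lay in isoforms that match reference transcripts of NMD type, those whose stop codon GENCODE places far upstream of the last exon junction. Their summed signal was 13130 in SMG6/XRN1, 13319 in UPF1/XRN1, 4939 in XRN1 and 1978 in control. All other MAGOHB isoforms together had 5201 in SMG6/XRN1, 5079 in UPF1/XRN1, 4667 in XRN1 and 5279 in control. The reads of NMD type over XRN1 were 2.66 (2.49 to 2.84) in SMG6/XRN1 and 2.70 (2.53 to 2.88) in UPF1/XRN1, and XRN1 over control was 2.50 (2.25 to 2.78). For the other isoforms, the ratios were 1.11 (1.03 to 1.21), 1.09 (1.01 to 1.18) and 0.884 (0.816 to 0.956) in the same comparisons, and scaled to the same total of reads the first was 1.01 (0.931 to 1.10). NMD-type isoforms held 71.6% of the locus's reads in SMG6/XRN1 (70.3 to 73.0), 72.4% in UPF1/XRN1 (71.1 to 73.6), 51.4% in XRN1 (49.4 to 53.5) and 27.2% in control (25.2 to 29.3). The level of this share depends on length: by signal per base of reference length a measure added after seeing the data, it was 88.8% in SMG6/XRN1, 89.5% in UPF1/XRN1, 76.6% in XRN1 and 53.4% in control.

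**Figure D3:**
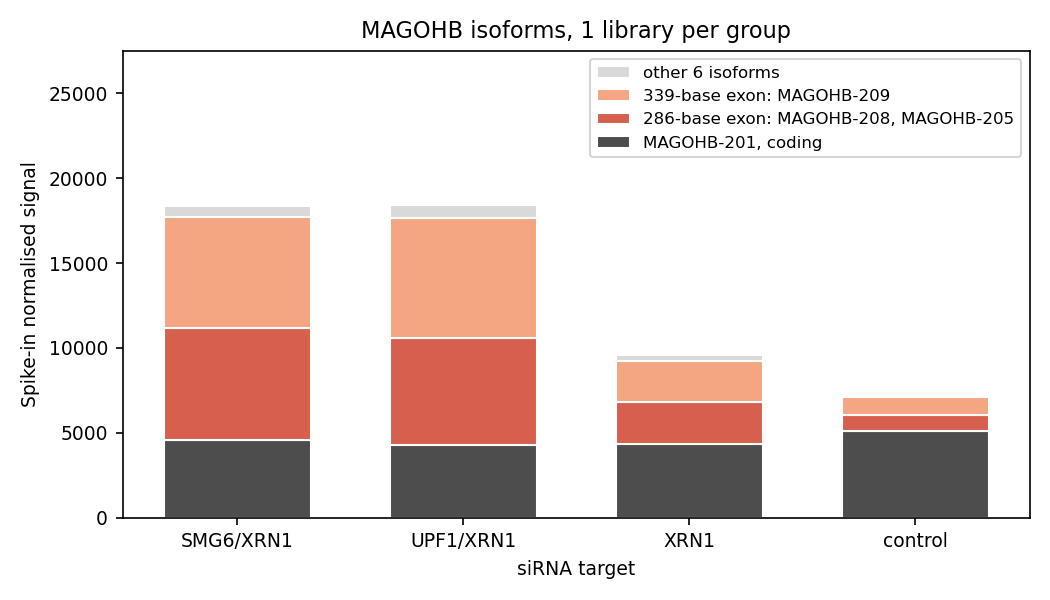
Spike-in normalised signal of MAGOHB isoforms, stacked by kind, in the 4 libraries. The coding isoform MAGOHB-201 is between 4306 and 5136 in all 4 libraries, while the isoforms with an extra exon sum to 13130 in SMG6/XRN1, 13319 in UPF1/XRN1, 4939 in XRN1 and 1978 in control.

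The coding isoform MAGOHB-201 had a signal of 4606 in SMG6/XRN1, 4306 in UPF1/XRN1, 4318 in XRN1 and 5136 in control. Its ratio over XRN1 was 1.07 (0.979 to 1.16) in SMG6/XRN1 and 0.998 (0.917 to 1.09) in UPF1/XRN1, and both intervals hold 1. MAGOHB-208 had 5915 in SMG6/XRN1, 5248 in UPF1/XRN1, 1917 in XRN1 and 496 in control. MAGOHB-209 had 6547 in SMG6/XRN1, 7013 in UPF1/XRN1, 2450 in XRN1 and 1080 in control. Both were in the same order of groups apart from their highest, with control lowest and XRN1 between control and the co-depletions. Over XRN1, MAGOHB-208 was at 3.09 (2.78 to 3.43) in SMG6/XRN1 and 2.74 (2.47 to 3.05) in UPF1/XRN1, and MAGOHB-209 at 2.67 (2.43 to 2.94) and 2.86 (2.61 to 3.14). The third isoform of NMD type, MAGOHB-205, had 668 in SMG6/XRN1, 1058 in UPF1/XRN1, 572 in XRN1 and 402 in control and passed 2-fold in UPF1/XRN1 over control alone, at 2.64 (2.10 to 3.33). The other 6 isoforms summed to 595 in SMG6/XRN1, 773 in UPF1/XRN1, 349 in XRN1 and 143 in control. Of these, TCONS_00045010, an unmatched isoform nearest to MAGOHB-208, had 452 in SMG6/XRN1, 608 in UPF1/XRN1, 289 in XRN1 and 77.4 in control, and TCONS_00045008, likewise nearest to MAGOHB-208, had 107 in SMG6/XRN1, 86.1 in UPF1/XRN1, 21.9 in XRN1 and 25.1 in control.

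The extra sequence in these isoforms is shown because it carries the stop codon that sets them apart. MAGOHB-208 and MAGOHB-205 hold a 286-base exon (chromosome 12, 10609098 to 10609383) between the exons that are exons 3 and 4 of MAGOHB-201. After that junction 6 more bases are read before TGA, and 360 bases lie between this stop and the last junction. MAGOHB-209 holds a 339-base exon (chromosome 12, 10612640 to 10612978) between exons 1 and 2 of MAGOHB-201. There 149 bases are read before TGA, and 440 bases lie between the stop and the last junction. In the lines below, the capitals mark the start of the next exon in MAGOHB-201 and the stop codon in the other isoforms (GENCODE v29 transcripts, GRCh38, 5′ to 3′).
MAGOHB-201 exon 3 into exon 4: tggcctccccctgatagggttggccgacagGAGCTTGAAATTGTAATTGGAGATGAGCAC
MAGOHB-208 exon 3 into the 286-base exon: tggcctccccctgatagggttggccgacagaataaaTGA
MAGOHB-201 exon 1 into exon 2: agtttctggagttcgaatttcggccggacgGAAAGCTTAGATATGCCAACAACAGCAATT
MAGOHB-209 exon 1 into the 339-base exon: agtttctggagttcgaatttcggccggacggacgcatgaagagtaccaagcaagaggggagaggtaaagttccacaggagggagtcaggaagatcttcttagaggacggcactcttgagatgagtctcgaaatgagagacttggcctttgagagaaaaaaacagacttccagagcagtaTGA
The 2 lines of each pair share their first 30 bases.

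**Figure D4:**
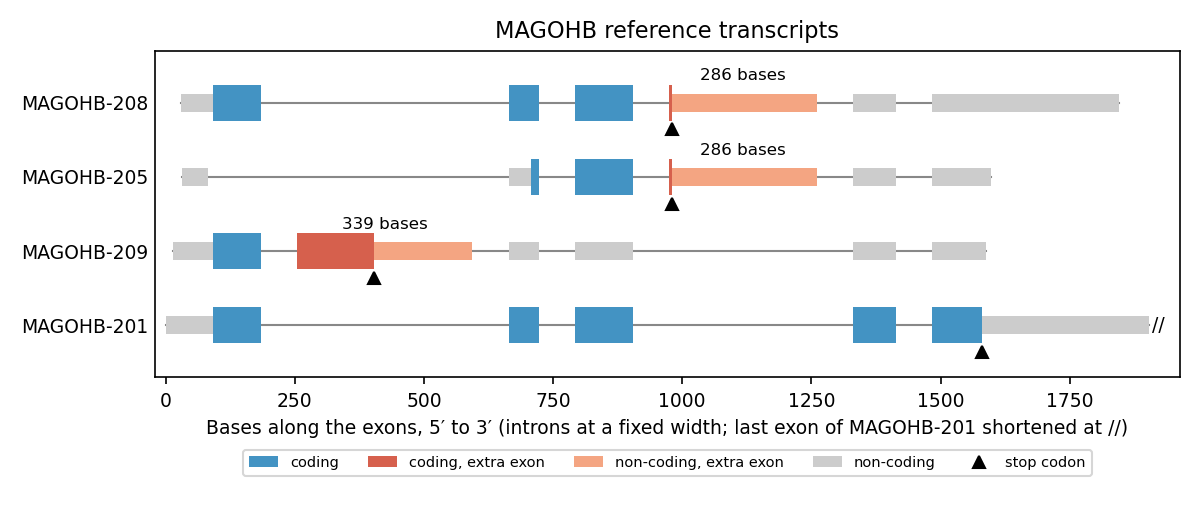
Exons of 4 MAGOHB reference transcripts drawn to scale from 5′ to 3′, with introns at a fixed width, coding stretches as tall boxes and stop codons as triangles. The 286-base exon and the 339-base exon bring the stop 360 and 440 bases upstream of the last junction, while the stop of MAGOHB-201 is in its last exon.

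Signal grows with length, and MAGOHB-201 has 2623 bases in the reference against 1057 for MAGOHB-208 and 868 for MAGOHB-209. Per kilobase, MAGOHB-201 had a signal of 1756 in SMG6/XRN1, 1642 in UPF1/XRN1, 1646 in XRN1 and 1958 in control. MAGOHB-209 had 7542 per kilobase in SMG6/XRN1, 8079 in UPF1/XRN1, 2822 in XRN1 and 1245 in control. MAGOHB-208 had 5596 in SMG6/XRN1, 4965 in UPF1/XRN1, 1814 in XRN1 and 469 in control. On this scale MAGOHB-201 was above each of them in control and below each of them in both co-depletions. In XRN1, MAGOHB-201 was below both as well.

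Among 1831 loci with an isoform of NMD type and at least 1000 reads in each library, the median share of reads in such isoforms was 2.18% in SMG6/XRN1, 2.81% in UPF1/XRN1, 1.27% in XRN1 and 0.925% in control. The MAGOHB share was reached or passed by 14 loci in SMG6/XRN1, itself included, by 11 in UPF1/XRN1, by 50 in XRN1 and by 145 in control. Its share was 44.4 percentage points higher in SMG6/XRN1 than in control, a difference that 3 loci reached, itself included, and 45.1 points higher in UPF1/XRN1 than in control, which 5 loci reached. CASC3 and RNPS1, the other members with an isoform of NMD type, were nearer the median: CASC3 held 3.88% of its reads in such isoforms in SMG6/XRN1, 4.94% in UPF1/XRN1, 2.41% in XRN1 and 2.92% in control.

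The 4 genes whose profile over control was nearest to that of MAGOHB were CWC25, HELQ, C1orf112 and B3GALNT2, at distances of 0.06, 0.07, 0.08 and 0.08 in log2 over the 3 differences from control, among 7880 genes with a mean of at least 5 FPKM. All 3 differences share the control library. HELQ, a DNA helicase, had log2 differences over control of 1.01 in SMG6/XRN1, 1.07 in UPF1/XRN1 and 0.35 in XRN1, beside 1.04, 1.07 and 0.28 for MAGOHB in those comparisons.

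CASC3 (MLN51, Barentsz) is the core subunit that joins the complex outside the spliceosome and stimulates the ATPase (chromosome 17, 40140318 to 40172183, plus strand). It had 36.1 FPKM in SMG6/XRN1, 36.6 in UPF1/XRN1, 28.6 in XRN1 and 23.4 in control. The co-depletions were highest and control lowest. Its reads over XRN1 were 1.27 (1.22 to 1.33) in SMG6/XRN1 and 1.23 (1.18 to 1.28) in UPF1/XRN1, and over control 1.71 (1.64 to 1.79) and 1.66 (1.58 to 1.73). Nearly all of it was the coding isoform CASC3-201, with a signal of 19532 in SMG6/XRN1, 18552 in UPF1/XRN1, 15548 in XRN1 and 11361 in control. The annotated stop of CASC3-201 lies 41 bases upstream of its last junction, in the exon before the last.

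CASC3-204, of NMD type, had a signal of 791 in SMG6/XRN1, 963 in UPF1/XRN1, 371 in XRN1 and 347 in control. Its ratio over XRN1 was 2.12 (1.64 to 2.76) in SMG6/XRN1 and 2.59 (2.03 to 3.32) in UPF1/XRN1, against 1.26 (1.20 to 1.31) and 1.19 (1.14 to 1.24) for CASC3-201. In it, 283 bases of CASC3-201 exon 7 are removed as an intron (chromosome 17, 40163603 to 40163885), a length that is no multiple of 3, and the stop lies 177 bases upstream of the last junction. The reference transcript is incomplete at its 5′ end. Its junction and the 101 bases read after it are shown with the stop in capitals (GENCODE v29, GRCh38, 5′ to 3′).
CASC3-204 exon 4 into exon 5: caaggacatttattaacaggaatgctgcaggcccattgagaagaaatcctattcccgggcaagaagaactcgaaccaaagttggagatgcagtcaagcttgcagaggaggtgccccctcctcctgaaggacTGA
The retained-intron isoform CASC3-202 had 31 in SMG6/XRN1, 111 in UPF1/XRN1, 0 in XRN1 and 65.9 in control, at most 30 reads in any library.

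RNPS1 links the complex to splicing and, when tethered to mRNA, activates NMD (chromosome 16, 2253116 to 2268412, minus strand). It had 218 FPKM in SMG6/XRN1, 196 in UPF1/XRN1, 232 in XRN1 and 276 in control. Control was highest and UPF1/XRN1 lowest. Its reads over XRN1 were 0.988 (0.962 to 1.01) in SMG6/XRN1 and 0.867 (0.844 to 0.890) in UPF1/XRN1, and over control 0.854 (0.833 to 0.876) and 0.749 (0.730 to 0.769). Scaled to the same total of reads, the ratio of SMG6/XRN1 over XRN1 was 0.895 (0.872 to 0.920).

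Within RNPS1 the signal was divided differently in the 4 libraries. RNPS1-204, the isoform with the highest mean, had 10296 in SMG6/XRN1, 12889 in UPF1/XRN1, 16611 in XRN1 and 22193 in control. RNPS1-201 had 3483 in SMG6/XRN1, 1724 in UPF1/XRN1, 133 in XRN1 and 320 in control, which is 26.1 times XRN1 (18.4 to 38.1) in SMG6/XRN1 and 12.9 times (9.05 to 18.9) in UPF1/XRN1. The reference transcript of RNPS1-201 has a 63-base exon ahead of the coding region that the coding isoform RNPS1-202 lacks, and the same 915 coding bases. Its first and last exons are also shorter, at 60 and 218 bases against 358 and 948 in RNPS1-202. The reference transcript of RNPS1-204 is incomplete at its 3′ end. The isoform TCONS_00075046, which matches no reference transcript, had 428 in SMG6/XRN1, 349 in UPF1/XRN1, 11.3 in XRN1 and 0 in control, and its ratio over XRN1, where it had 3 reads, was 35.3 (11.8 to 174) in SMG6/XRN1 and 28.8 (9.55 to 142) in UPF1/XRN1. All 15 coding isoforms together held 77.2% of reads in SMG6/XRN1, 76.6% in UPF1/XRN1, 79.3% in XRN1 and 79.3% in control. A change in the isoforms and a change in how reads were divided among these overlapping models cannot be told apart here.

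RNPS1-209, of NMD type, had a signal of 1287 in SMG6/XRN1, 1364 in UPF1/XRN1, 959 in XRN1 and 1558 in control. It was above XRN1 in both co-depletions, at 1.34 (1.13 to 1.60) in SMG6/XRN1 and 1.42 (1.20 to 1.68) in UPF1/XRN1, and its highest value was in control. In it, exon 4 lacks 46 bases that RNPS1-202 has (chromosome 16, 2263096 to 2263141), and the stop lies 159 bases upstream of the last junction. The sequence from that junction to the stop, in capitals, is shown beside those of MAGOHB and CASC3 because this isoform alone among them did not have control as its lowest group (GENCODE v29, GRCh38, 5′ to 3′).
RNPS1-209 exon 4 into exon 5: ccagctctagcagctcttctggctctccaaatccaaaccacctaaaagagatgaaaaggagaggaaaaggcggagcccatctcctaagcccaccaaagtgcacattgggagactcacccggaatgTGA
The smaller isoforms named by rule were TCONS_00075049, with 252 in SMG6/XRN1, 0 in UPF1/XRN1, 138 in XRN1 and 361 in control, and RNPS1-216, with 164 in SMG6/XRN1, 89.5 in UPF1/XRN1, 75.4 in XRN1 and 137 in control.

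ACIN1 (Acinus) is the scaffold of the ASAP complex (chromosome 14, 23058564 to 23095614, minus strand). It had 81.4 FPKM in SMG6/XRN1, 82.4 in UPF1/XRN1, 62.1 in XRN1 and 51.7 in control, in the same order of groups as CASC3. Its reads over XRN1 were 1.40 (1.35 to 1.46) in SMG6/XRN1 and 1.32 (1.27 to 1.37) in UPF1/XRN1, and over control 1.91 (1.83 to 1.99) and 1.79 (1.72 to 1.87). The short coding isoform ACIN1-202 had the highest mean signal, with 8997 in SMG6/XRN1, 6571 in UPF1/XRN1, 6163 in XRN1 and 4407 in control. No ACIN1 isoform in the table matches a reference transcript of NMD type. Its isoforms that match no reference transcript held 12.4% of reads in SMG6/XRN1 (11.6 to 13.2), 12.8% in UPF1/XRN1 (12.0 to 13.6), 6.79% in XRN1 (6.08 to 7.54) and 5.26% in control (4.56 to 6.03). Among them, TCONS_00058146 had a signal of 2495 in SMG6/XRN1, 2443 in UPF1/XRN1, 1139 in XRN1 and 226 in control, and TCONS_00058143 had 330 in SMG6/XRN1, 171 in UPF1/XRN1, 78.2 in XRN1 and 402 in control. TCONS_00058146 was the higher of the pair in the 3 depletion libraries, and TCONS_00058143 in control.

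TCONS_00058146 was 2.19 times XRN1 (1.90 to 2.54) in SMG6/XRN1 and 2.15 times (1.86 to 2.48) in UPF1/XRN1, and XRN1 was 5.00 times control (3.77 to 6.74). TCONS_00058135 had 479 in SMG6/XRN1, 558 in UPF1/XRN1, 1.26 in XRN1 and 26.8 in control, with 113, 150, 0 and 7 estimated reads in that order. Over control it was at 17.8 (8.36 to 45.3) in SMG6/XRN1 and 20.7 (9.79 to 52.3) in UPF1/XRN1. Both isoforms carry the authors' NMD mark, and their sequence is not in the files used here. The coding isoform ACIN1-203 had 659 in SMG6/XRN1, 1174 in UPF1/XRN1, 221 in XRN1 and 354 in control. ACIN1-204 was at 96.3 in XRN1 and listed at 0 in the other 3 libraries, and the retained-intron isoform ACIN1-207 had 19.6 in SMG6/XRN1, 72.7 in UPF1/XRN1, 5.99 in XRN1 and 7.63 in control.

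SAP18, the smallest partner in the ASAP complex, also belongs to a histone deacetylase complex (chromosome 13, 21140514 to 21149084, plus strand). It had 272 FPKM in SMG6/XRN1, 233 in UPF1/XRN1, 259 in XRN1 and 247 in control, the narrowest relative range of the 8 genes. Its main isoform SAP18-201 had a signal of 31472 in SMG6/XRN1, 30754 in UPF1/XRN1, 25573 in XRN1 and 28630 in control. The FPKM and the reads differ in direction for UPF1/XRN1 over XRN1: the log2 difference of FPKM was -0.15, while the reads were at 1.12 (1.09 to 1.16). They also differ for XRN1 over control, at 0.07 and 0.944 (0.916 to 0.973), and for UPF1/XRN1 over control, at -0.08 and 1.06 (1.03 to 1.09). Scaled to the same total of reads, the ratio of UPF1/XRN1 over control was 0.960 (0.933 to 0.988), and that of SMG6/XRN1 over control was 0.926 (0.900 to 0.954), against 1.12 (1.09 to 1.16) on the spike-in scale. None of its 3 isoforms compared passed 2-fold.

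Across the 8 genes, 50 of 89 isoforms passed the minimum of a mean signal of 30.9, and 16 were listed at 0 in all 4 libraries. In SMG6/XRN1 over XRN1, 15 of the 50 were at least 2-fold higher and 2 lower by as much, where 25.1% and 9.30% of the 61408 isoforms compared were. In UPF1/XRN1 over XRN1 it was 15 higher and 1 lower, where 27.1% and 11.5% were. In XRN1 over control it was 11 higher and 9 lower, where 24.3% and 12.6% were. In SMG6/XRN1 over control 17 were higher and 5 lower, where 35.2% and 8.52% were, and in UPF1/XRN1 over control 17 were higher and 4 lower, where 35.5% and 10.3% were. The shares of higher isoforms among the members were 30.0% in each co-depletion over XRN1, 22.0% in XRN1 over control and 34.0% in each co-depletion over control, near those of all isoforms. The balance of directions depends on the centring, as the median of all isoforms was 0.18 in XRN1 over control, 0.51 in SMG6/XRN1 over control and 0.45 in UPF1/XRN1 over control on the log2 scale. Centred on it, 7 were higher and 10 lower in XRN1 over control, 11 higher and 8 lower in SMG6/XRN1 over control, and 14 higher and 8 lower in UPF1/XRN1 over control. Over XRN1, the median of all isoforms was 0.30 in SMG6/XRN1 and 0.24 in UPF1/XRN1. Centred on these, 10 were higher and 2 lower in SMG6/XRN1, and 10 higher and 1 lower in UPF1/XRN1. By gene, those 2-fold higher in SMG6/XRN1 over XRN1 were 5 of 17 for RNPS1, 5 of 13 for ACIN1, 3 of 6 for MAGOHB and 2 of 3 for CASC3, with none for EIF4A3, RBM8A, MAGOH and SAP18.

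Of 5 member isoforms of NMD type past the minimum, 3 were at least 2-fold higher in SMG6/XRN1 over XRN1, where 40.0% of the 3583 isoforms of that type were. Again 3 were in UPF1/XRN1 over XRN1, where 44.7% were, and 2 in XRN1 over control, where 33.8% were. Over control it was 3 in SMG6/XRN1, where 56.2% were, and 4 in UPF1/XRN1, where 59.1% were. With 5 such isoforms, 3 of them of MAGOHB, the members' counts do not stand apart from these shares.

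Of 25 member isoforms of coding type, 5 were at least 2-fold higher in SMG6/XRN1 over XRN1, where 17.2% were, 4 in UPF1/XRN1 over XRN1, where 17.7% were, and 2 in XRN1 over control, where 17.3% were. Over control it was 4 in SMG6/XRN1, where 24.5% were, and 4 in UPF1/XRN1, where 23.9% were. Of 6 retained-intron isoforms, 1 was higher in SMG6/XRN1 over XRN1, where 27.8% were, 1 in UPF1/XRN1 over XRN1, where 32.5% were, and 2 in XRN1 over control, where 28.5% were. Over control it was 3 in SMG6/XRN1, where 42.2% were, and 3 in UPF1/XRN1, where 44.3% were. Of 12 isoforms that match no reference transcript, 5 were higher in SMG6/XRN1 over XRN1, where 31.8% were, 6 in UPF1/XRN1 over XRN1, where 34.4% were, and 5 in XRN1 over control, where 30.0% were. Over control it was 7 in SMG6/XRN1, where 42.1% were, and 6 in UPF1/XRN1, where 43.1% were. Over all genes, coding isoforms were 2-fold higher in a smaller share than isoforms of NMD type in each of the 5 comparisons. The member counts had the same order, but their 5 isoforms of NMD type come from MAGOHB, CASC3 and RNPS1 alone. In XRN1 over control, both that passed were of MAGOHB, at log2 differences of 1.95 for MAGOHB-208 and 1.18 for MAGOHB-209. CASC3-204 was at 0.10 there and RNPS1-209 at -0.70, so the order in that comparison rests on MAGOHB.

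In the authors' deposited table, 19 of the 89 member isoforms carry an NMD mark, 21.3%, against 14.0% of all isoforms. That mark was set wherever both co-depletions were above 0 and over 2 times the control, so it restates these signals. Isoforms at 0 cannot carry it. Of the 89 members, 16 were listed at 0 in all 4 libraries, while 122816 of all 199618 isoforms had signal above 0. The 21.3% and 14.0% therefore rest on unlike shares of isoforms with signal. The mark stands on 6 ACIN1, 5 MAGOHB, 4 RNPS1, 2 EIF4A3, 1 MAGOH and 1 CASC3 isoforms, and on none of RBM8A or SAP18.

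**Figure D5:**
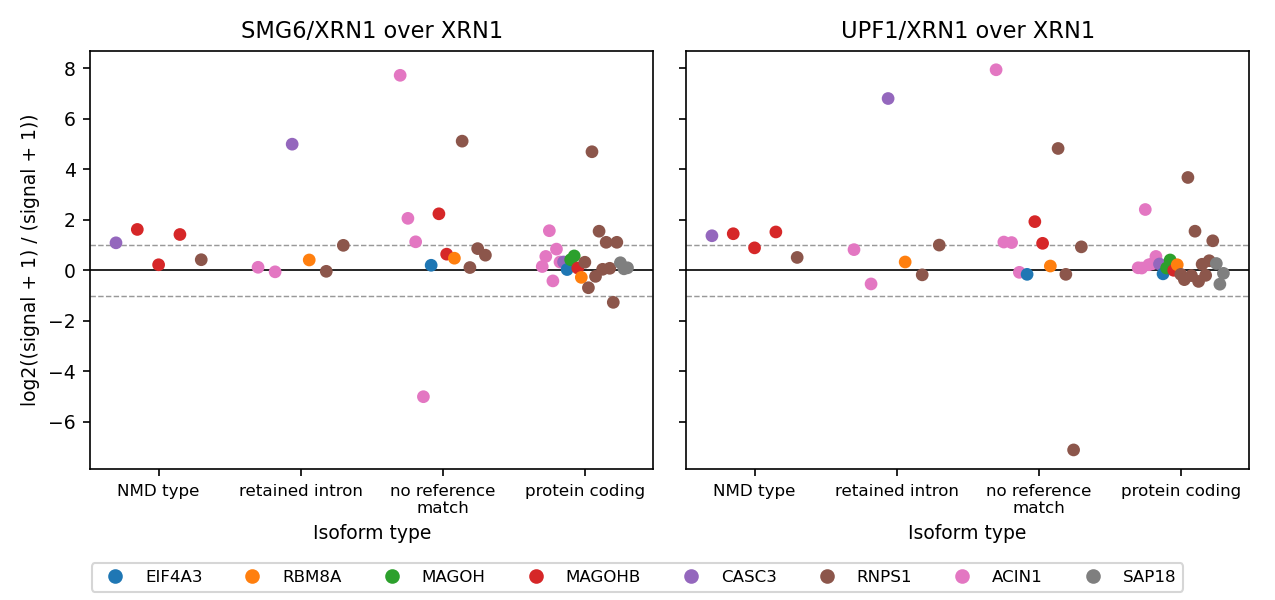
Differences of the 48 member isoforms past the minimum that have one of 4 types, as log2((signal + 1)/(signal + 1)), for SMG6/XRN1 over XRN1 on the left and UPF1/XRN1 over XRN1 on the right, coloured by gene, with dashed lines at 2-fold. The 5 isoforms of NMD type are all above 0 in both panels, and the widest differences are in isoforms listed at or near 0 in a library.

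The other genes of the pathway were taken from lists of factors that load, recycle or import the complex, that link it to NMD, and that are its partners in splicing and export. Of the 4 loading, recycling and import factors, none passed 2-fold in any comparison: CWC22, the splicing factor that brings EIF4A3 to the spliceosome, CWC27, PYM1, listed in the files as WIBG, which takes the complex apart on ribosomes, and IPO13, the importin of the RBM8A and MAGOH pair. IPO13 had 3.44 FPKM in SMG6/XRN1, 4.05 in UPF1/XRN1, 2.82 in XRN1 and 1.78 in control, and CWC22 had 21.3 FPKM in SMG6/XRN1, 18.5 in UPF1/XRN1, 16.4 in XRN1 and 18.3 in control. Of the 5 genes linking it to NMD, 1 passed 2-fold: UPF3B, which binds the complex directly, in UPF1/XRN1 over control at a log2 difference of 1.01, with 107 FPKM in SMG6/XRN1, 114 in UPF1/XRN1, 96.7 in XRN1 and 56.3 in control. UPF2, which bridges UPF3B and UPF1, had 26.3 FPKM in SMG6/XRN1, 26.9 in UPF1/XRN1, 20.2 in XRN1 and 13.4 in control. The others of the 5 are UPF3A and the siRNA targets UPF1 and SMG6. By FPKM, all 5 were above control in every depletion. For UPF3A in XRN1 this was a log2 difference of 0.05, while its estimated reads were lower there, at 2028 against 2155 in control. The median log2 difference of FPKM of the 5 was 0.68 in SMG6/XRN1, 0.52 in UPF1/XRN1 and 0.55 in XRN1 over control. The medians over all genes were 0.25 in SMG6/XRN1, 0.15 in UPF1/XRN1 and 0.14 in XRN1. The targets enter the medians of the 5, and the 0.68 in SMG6/XRN1 is the value of UPF1 itself. In UPF1/XRN1 over control, 10.8% of all genes passed 2-fold. Centred on the median of all genes there, 0.15, UPF3B would not pass it, so this call depends on the centring.

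Of 14 splicing and export partners, 2 passed 2-fold over control in both co-depletions and none over XRN1, where 9.56% of all genes passed it in SMG6/XRN1 over control and 10.8% in UPF1/XRN1 over control. THOC1, a subunit of the THO complex that couples transcription to export, had 68.6 FPKM in SMG6/XRN1, 69.4 in UPF1/XRN1, 37.7 in XRN1 and 28.4 in control. DDX39A, an export helicase, had 74.7 FPKM in SMG6/XRN1, 81.3 in UPF1/XRN1, 47.5 in XRN1 and 33.9 in control. Over control, the log2 differences were 1.24 in SMG6/XRN1 and 1.26 in UPF1/XRN1 for THOC1, and 1.12 and 1.24 for DDX39A. The medians of all genes there were 0.25 in SMG6/XRN1 and 0.15 in UPF1/XRN1. Centred on them, THOC1 and DDX39A would stay past 2-fold in UPF1/XRN1 only. Both were in the same order of groups as MAGOHB. The other 12 lay within 2-fold, the nearest to it being NXF1, the mRNA export receptor, with 16.9 FPKM in SMG6/XRN1, 22.7 in UPF1/XRN1, 14.0 in XRN1 and 11.5 in control, and SRRM1, a splicing coactivator, with 143 FPKM in SMG6/XRN1, 172 in UPF1/XRN1, 117 in XRN1 and 92.0 in control. The values of DDX39B and THOC5 belong to loci that the table also assigns to ATP6V1G2-DDX39B and NIPSNAP1 and were not read further.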

How the data were processed

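Cytoplasmic poly(A)+ RNA was extracted with digitonin and sequenced from ScriptSeq v2 libraries, per the labels. Per the submitters' processing notes, CASAVA 1.8.2, Bowtie 0.12.7, TopHat2 2.0.6, Cufflinks 2.0.2 and hg19 were used, with no role or order given. The authors deposited FPKM per locus, and a signal per assembled isoform that they call spike-in normalised. How the spike-in factor was made, and whether strand was counted, is not given in the sources at hand.

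Estimated reads are the signal over the value of a single read in that library, and 86.7% to 89.1% of loci with up to 20 reads came out whole within 0.01. FPKM and signal were compared as log2((a + 1)/(b + 1)), for genes with a mean of at least 1 FPKM and isoforms with a mean signal of at least 30.9, with calls at 2-fold. There are no p-values, since each group is a single library. Read ratios carry exact conditional binomial intervals and shares exact Clopper-Pearson intervals, at 95%. Loci entered the background of intervals with at least 20 reads in 1 of the libraries compared and a read in the library that is the denominator. Loci without a read in the numerator library stayed in.

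Isoforms were joined to GENCODE v29 by transcript identifier (68 of the 70 that match a reference transcript), 26 of them in the same version. Types, lengths, exons and sequences come from there, a step added after the data were seen. Named isoforms are, per gene, that of highest mean signal and up to 4 others with the widest difference over XRN1 past 2-fold and 20 reads; further isoforms, among them those of NMD type, were named after their values were seen. Members and lists were chosen with earlier results of these data known. The steps were tested on simulated data. Columns of values were assigned to libraries by sample title, and the columns of marks per isoform belong to no single library. Python 3.11.15, pandas 2.3.3, numpy 2.4.6 and scipy 1.17.1 were used. Alternatives were other pseudocounts, filters, scalings and isoform classes.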

Additional observations from a re-analysis of the deposited data

How the results depend on the processing

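No paired analysis was possible because each group had 1 library. Centring each comparison on the median of all genes moved the median of the 8 genes to -0.20 in XRN1 over control, 0.15 in SMG6/XRN1 over XRN1, -0.13 in SMG6/XRN1 over control and -0.17 in UPF1/XRN1 over control, and it left 0 of 8 past 2-fold in both comparisons of a co-depletion with control, since MAGOHB was just past it. With no filter, member isoforms past 2-fold numbered 32 in XRN1 over control, 31 in each co-depletion over XRN1 and 34 in UPF1/XRN1 over control. With isoforms that match a reference transcript alone they numbered 11 in XRN1 over control, 11 in SMG6/XRN1 over XRN1, 9 in UPF1/XRN1 over XRN1, 14 in SMG6/XRN1 over control and 12 in UPF1/XRN1 over control, as fewer isoforms were counted. Scaled to the same total of reads, 3 loci had an interval above 1 and 5 below in each co-depletion over control, against 5 above and 2 below in SMG6/XRN1 and 5 above and 3 below in UPF1/XRN1 on the spike-in scale, and loci below 1 went to 2, against 0, in SMG6/XRN1 over XRN1. Over control, MAGOH turned to 0.933 and SAP18 to 0.926 in SMG6/XRN1, and RBM8A to 0.952 and SAP18 to 0.960 in UPF1/XRN1. RBM8A in SMG6/XRN1 over control, at 0.829, and EIF4A3 in SMG6/XRN1 over XRN1, at 0.929, also came to lie below 1, where their intervals on the spike-in scale hold 1. Under 2 alternatives chosen after seeing the data, the NMD-type share of MAGOHB was 74.8% in SMG6/XRN1, 76.4% in UPF1/XRN1 and 54.8% in XRN1 with unmatched isoforms nearest to that type added, and 88.8% in SMG6/XRN1, 89.5% in UPF1/XRN1, 76.6% in XRN1 and 53.4% in control by signal per base. The other 70 totals, medians and shares kept within their tolerance, 1.5 times for totals and 0.1 for log2 medians, but not every split by direction did: centred on the median of all isoforms, 7 isoforms were higher and 10 lower in XRN1 over control, against 11 and 9, and 11 higher and 8 lower in SMG6/XRN1 over control, against 17 and 5. With the same centring, 10 isoforms were higher in each co-depletion over XRN1, against 15. The main limit is the single library per group, and isoforms under 20 reads carry wide intervals.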
